A study of Mus musculus with 2 samples.

Results

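The epidermal differentiation complex is a cluster of genes on mouse chromosome 3 whose products build the cornified envelope of the skin, and 180 accessible regions were assigned to it out of 109257 measured in the series. The members were the regions with a midpoint from 90.4 to 94 Mb (GRCm38) whose nearest protein-coding gene, within 50 kb, belonged to the S100a, filaggrin-like, involucrin, loricrin, Sprr, Lce, Pglyrp, Prr9 or Lelp1 genes. The rule used position and gene name and no measured value, but it was set with earlier results of these data known. Of the 217 regions in this window, 37 belonged to other genes or to none. The 63 genes of these families were grouped by subfamily, and 49 of them held at least 1 region. A region is a stretch of DNA counted in both libraries, and its count rises with how often the transposase Tn5, which enters open chromatin, cut there.

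Interfollicular basal cells were sorted from the back skin of 2 CD1 mice, positive for ITGA6, an integrin subunit of cells on the basement membrane, and negative for CD34, which marks stem cells of the follicle bulge. The control mouse was untreated, and the skin of the other mouse had been expanded by tissue stretching. Each group was 1 library made from 10000 cells of 1 mouse of an outbred stock, so nothing here could be tested against spread between replicates and no p-value is given. Differences between the animals and effects of stretching cannot be told apart. Fewer cells with an open site and a less open site per cell cannot be told apart in such bulk libraries. The comparison asked where chromatin was more or less open in the stretched skin.

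In the epidermis, basal cells divide and attach to the basement membrane, and their daughters switch on the genes of this complex as they move upwards. Involucrin and loricrin are cross-linked into the envelope by transglutaminases, small proline-rich proteins bridge them, late cornified envelope proteins are added late, and filaggrin-like proteins bind keratin filaments. S100 proteins are small calcium-binding proteins, several of which are also made by basal cells or by wounded skin.

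The sequences before the start sites show what the promoters of the complex share. RefSeq gives a start site for 57 of the 63 genes on GRCm38.p6. The search covered the 250 bases before each start, on both strands, for the letters TGANTCA. They are a loose form of the site of AP-1 (dimers of JUN and FOS proteins, induced by stress and differentiation). N stands for any base, while the consensus site of AP-1 has G or C there. At least 1 match was present in 20 of 57 genes (35.1%), against 7.19% of 17491 protein-coding genes with a listed start. By subfamily a match was found in 9 of 14 Sprr genes, 5 of 7 filaggrin-like genes, both Ivl and Lor, 3 of 12 S100a genes and 0 of 20 Lce genes. All matches of the filaggrin-like genes, Sprr1b and S100a16 have A or T at N and lie outside the consensus. The letters TATAAA, the core promoter element at which TBP binds, stood in the last 50 bases of 21 of 57 genes (36.8%, against 3.81% of all), among them 10 of 14 Sprr genes. A letter match is a description and not a binding site.

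AP-1 matches are shown in capitals below, and genes without a match, among them the Lce genes, are not printed. The promoters of 6 of the 20 genes with a match are printed from 5′ to 3′ on the strand of the gene. They are Sprr1a at chr3:92485882-92486131 (minus strand), Ivl at chr3:92573736-92573985 (minus strand), Lor at chr3:92083143-92083392 (minus strand), Crnn at chr3:93144539-93144788 (plus strand), Flg at chr3:93273296-93273545 (plus strand), S100a11 at chr3:93520246-93520495 (plus strand).
Sprr1a: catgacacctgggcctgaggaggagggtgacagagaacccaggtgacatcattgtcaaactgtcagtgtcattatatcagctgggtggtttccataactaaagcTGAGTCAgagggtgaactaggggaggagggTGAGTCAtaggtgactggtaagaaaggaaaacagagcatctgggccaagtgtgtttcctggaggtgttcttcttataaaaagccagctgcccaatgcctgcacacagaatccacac
Ivl: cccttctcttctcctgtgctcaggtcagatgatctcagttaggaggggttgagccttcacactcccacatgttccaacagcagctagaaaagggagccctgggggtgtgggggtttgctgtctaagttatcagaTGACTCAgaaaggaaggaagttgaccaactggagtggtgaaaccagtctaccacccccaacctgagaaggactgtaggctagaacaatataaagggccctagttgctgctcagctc
Lor: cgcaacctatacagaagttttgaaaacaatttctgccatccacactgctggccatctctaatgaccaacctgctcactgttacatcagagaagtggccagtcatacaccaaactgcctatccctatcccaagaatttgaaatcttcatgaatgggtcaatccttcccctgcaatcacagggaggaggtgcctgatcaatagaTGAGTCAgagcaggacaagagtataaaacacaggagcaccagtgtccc
Crnn: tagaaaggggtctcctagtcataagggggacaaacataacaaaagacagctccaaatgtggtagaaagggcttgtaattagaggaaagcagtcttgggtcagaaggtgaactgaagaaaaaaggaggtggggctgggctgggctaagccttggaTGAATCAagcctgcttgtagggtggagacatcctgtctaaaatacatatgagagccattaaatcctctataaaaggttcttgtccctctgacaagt
Flg: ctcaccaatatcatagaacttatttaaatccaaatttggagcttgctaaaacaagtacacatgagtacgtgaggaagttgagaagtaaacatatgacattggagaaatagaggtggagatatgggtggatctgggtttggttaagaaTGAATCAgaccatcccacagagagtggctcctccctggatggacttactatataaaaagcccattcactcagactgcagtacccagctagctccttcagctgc
S100a11: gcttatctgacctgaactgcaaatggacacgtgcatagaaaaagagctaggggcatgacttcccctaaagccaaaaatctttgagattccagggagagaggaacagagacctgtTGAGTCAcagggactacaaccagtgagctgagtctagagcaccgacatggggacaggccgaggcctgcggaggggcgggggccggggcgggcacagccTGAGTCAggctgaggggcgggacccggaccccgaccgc
Sprr1a and S100a11 carried 2 matches each. The matches began 146 and 116 bases before the start in Sprr1a, and 136 and 38 bases before it in S100a11. The single matches of Ivl, Lor, Crnn and Flg began at 116, 48, 96 and 103 bases, and those of Crnn and Flg have A at N. In the Sprr2 genes with a match the outermost one began from 198 bases before the start in Sprr2h to 193 bases in Sprr2d, Sprr2e and Sprr2i.

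**Figure D1:**
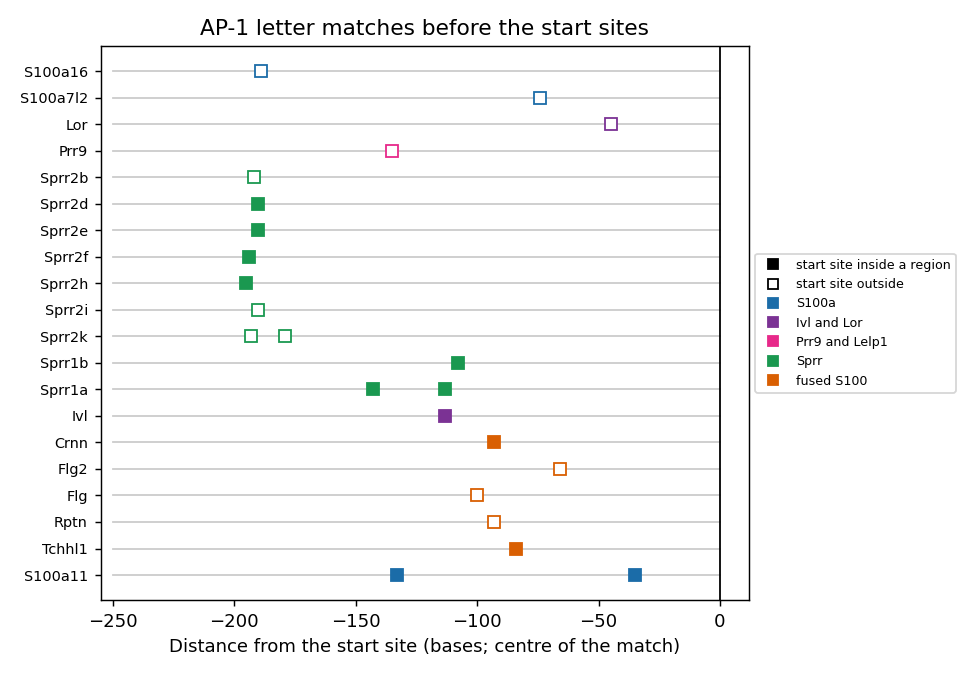
Position of each AP-1 letter match (squares, centre of the match) in the 250 bases before the start of 20 member genes, in bases from the start site. Filled squares mark the 10 genes in which the start after the match lies in an accessible region, open squares the other 10.

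The other motifs searched did not stand out in the same way. The letters GGAATG of TEAD factors, the partners of YAP, were found in 10 of 57 genes (17.5%, against 13.5% of all genes), 5 of them Lce genes. CACCC, recognised by KLF factors such as the differentiation regulator KLF4, was in 28 of 57 (49.1%, against 56.6%). No member held AACCGG of the grainyhead factors or TTGCGCAA of C/EBP factors, which 7.495% and 0.217% of all genes held.

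Many start sites of the complex lay outside accessible chromatin in these basal cells. A start was inside a region in 19 of 57 genes (33.3%, 21.4 to 47.1), against 61.9% of all protein-coding genes. The S100a genes were the most open subfamily with 8 of 12, and the Lce genes the least with 2 of 20, Lce6a and Lce1b. The Sprr genes had 6 of 14, but the regions at the starts of Sprr2d, Sprr2e, Sprr2f and Sprr1b held under 20 counts over both libraries. Of the filaggrin-like genes only Crnn, which encodes cornulin, and Tchhl1, a trichohyalin-like gene, had a start inside a region. The nearest region to the start of Flg, which encodes profilaggrin, lay 9480 bases away and held 6 control and 8 stretched counts. That of Hrnr, the hornerin gene, lay 21799 bases away, and that of Rptn, the repetin gene, 7637. Of the 19 genes with an open start, 10 had an AP-1 match before that start (52.6%), and 9 of the other 38 had a match (23.7%). With open starts limited to regions of at least 20 counts it was 6 of 15. Over all protein-coding genes with an open or a closed start the shares were 5.17% and 9.37%. The Lce genes, none with a match and 2 of 20 with an open start, fell mostly among the 38 members without an open start. The contrast was not tested within subfamilies.

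**Figure D2:**
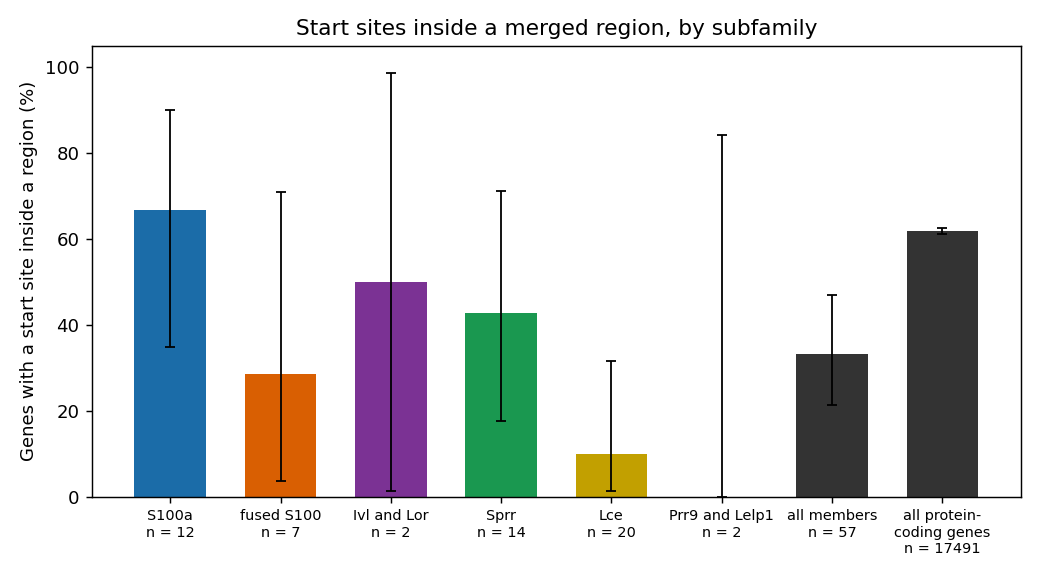
Share of genes (%) whose RefSeq start site lies inside a measured region, by subfamily, with exact 95% intervals as bars. The S100a genes stand at 66.7% and the Lce genes at 10.0%, and Pglyrp is not drawn because no start is listed.

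Some promoters of the complex are close copies of each other. The 250 bases before Sprr2a1 and Sprr2a2 were identical, and those of Sprr2d and Sprr2e differed at 30 positions. In an ungapped comparison 1 of 91 Sprr pairs and 0 of 190 Lce pairs shared at least 90% of positions. Such a comparison misses copies that are shifted along the sequence. The bases before Sprr2a3 were such a copy, since most of them repeated the Sprr2a1 sequence at an offset. Sprr2a2, Sprr2b, Sprr2k and 8 Lce genes had no region. Whether reads could be placed uniquely in copied genes was not tested, so counts at Sprr2a1, Sprr2a2 and Sprr2a3 are uncertain.

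Total counts were 8820178 (control) and 11803785 (stretched), but 10 very large regions took 34.5% and 48.9% of them. The libraries were therefore scaled with TMM, a method that sets the typical region to a fold near 1. The members held 7590 control and 9176 stretched counts, with a median of 44 per region over both libraries. Every fold is stretched over control after scaling, with an exact Clopper-Pearson 95% interval that covers counting error only. Among marker genes of cells that the sort could hold, the basal keratinocyte list (8 of 8 genes with a region) had a fold of 1.02 (0.986 to 1.05). The interval lay above 1 for 3 of these genes, among them Krt14 (1.20), and below 1 for 3, among them Krt15 (0.690). Markers of neutrophils, melanocytes, Langerhans and T cells, fibroblasts, endothelium and Merkel cells had summed folds from 0.710 to 1.02, and no region was assigned to Elane, Lum or Krt20. Suprabasal keratinocyte markers gave 0.888 (0.848 to 0.929) and hair follicle markers 0.936 (0.902 to 0.972). The part of other cell types in the results below was not tested.

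Levels per length differed between the subfamilies in both libraries. In CPM after TMM scaling, per kb of region, the involucrin and loricrin regions stood at 6.78 in the control and 8.31 after stretching. The S100a regions stood at 6.72 and 8.90, the filaggrin-like regions at 6.35 and 7.26, and the Lce regions at 4.13 and 5.60. The Sprr regions were the lowest in the control, at 2.81 and 4.24. The densest single region covered the start of Crnn (chr3:93144346-93145212), with 22.0 (control) and 31.3 (stretched). S100a14 and S100a16, calcium-binding proteins of epithelia, held 4 of the 8 densest regions, at 14.2 to 17.6 in the control. The others lay at S100a3 (1 region), S100a10 (1) and 13842 bases from S100a11 (1).

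**Figure D3:**
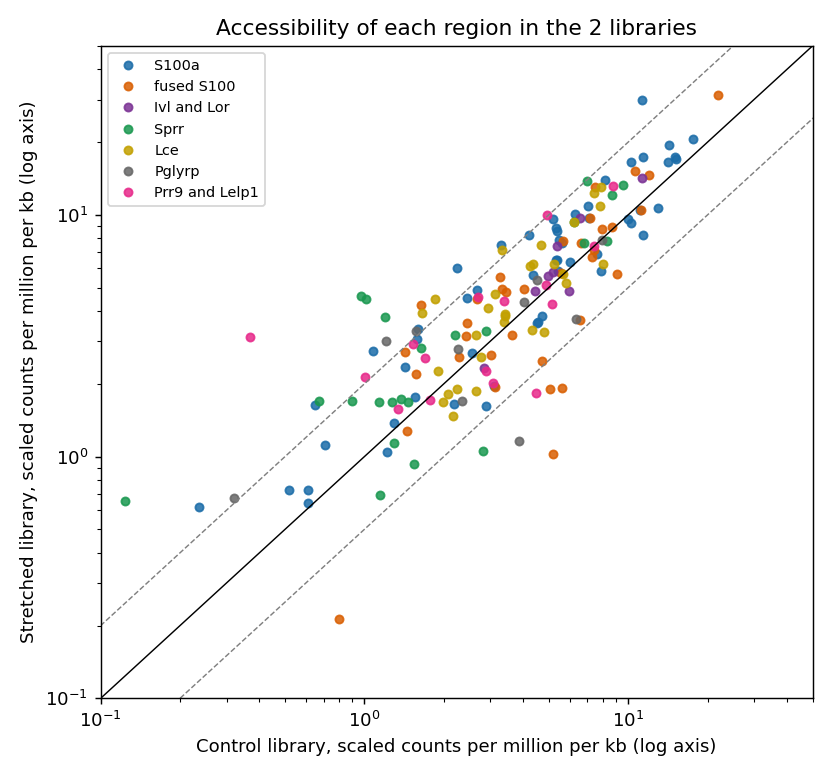
Level of each member region in the control (x) and stretched (y) library, in TMM-scaled CPM per kb on log axes. The 175 regions with counts in both libraries are drawn, the solid line marks equal levels and the dashed lines a 2-fold difference.

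Most regions of the complex lay slightly above a fold of 1 in the stretched library. The summed counts gave a fold of 1.28 (1.24 to 1.32). The sum over all assigned regions gave 1.42, and outside the 10 very large regions the counts were 5776423 in the control and 6027023 after stretching. The median log2 fold was 0.27 over the 139 members with at least 20 counts, and -0.01 over all assigned regions. A fold above 1 was found at 95 of these 139 members (68.3%), against 49.6% of all assigned regions. With the thinner members left aside, the longest run of neighbours above 1 held 13 regions from Sprr4 to Lce1b (chr3:92504841-92654463), with folds from 1.06 to 1.51. Inside this span 2 thinner members lay below 1, at Ivl (9 and 7 counts) and at Lce6a (10 and 8 counts). The remaining 41 members held fewer than 20 counts and were not called.

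A region was called higher or lower at a fold of at least 2 either way, with at least 20 counts and an interval that left out 1. By this rule 13 of 139 members were higher (9.35%, 5.07 to 15.5), against 6.90% of all 81168 assigned regions. Only 2 were lower (1.44%, 0.175 to 5.10), against 8.66% of all assigned regions. Neighbouring regions are not independent, so these intervals are too narrow. The share called higher was near the background, and the share called lower was under it. Among members with 20 to 100 counts 11 of 94 were higher (11.7%) and 2 lower (2.13%). All assigned regions in that range gave 7.39% higher and 12.3% lower. With at least 100 counts 2 of 45 members were higher (4.44%) and 0 lower, near the 6.12% and 2.84% of all assigned regions there. Elsewhere on chromosome 3, 10.2% of 3890 assigned regions were higher and 4.73% lower. At regions across the genome with the gene density of the members, 10 to 44 genes within 500 kb, 5.07% were higher and 10.3% lower. With counts scaled by library totals the members gave 3 higher and 10 lower and their sum a fold of 0.903, while all assigned regions gave 1.47% higher and 23.4% lower. The distance between the members' median and that of all regions was 0.27 on the log2 scale under every scaling by 1 factor, because such a scaling moves both alike.

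**Figure D4:**
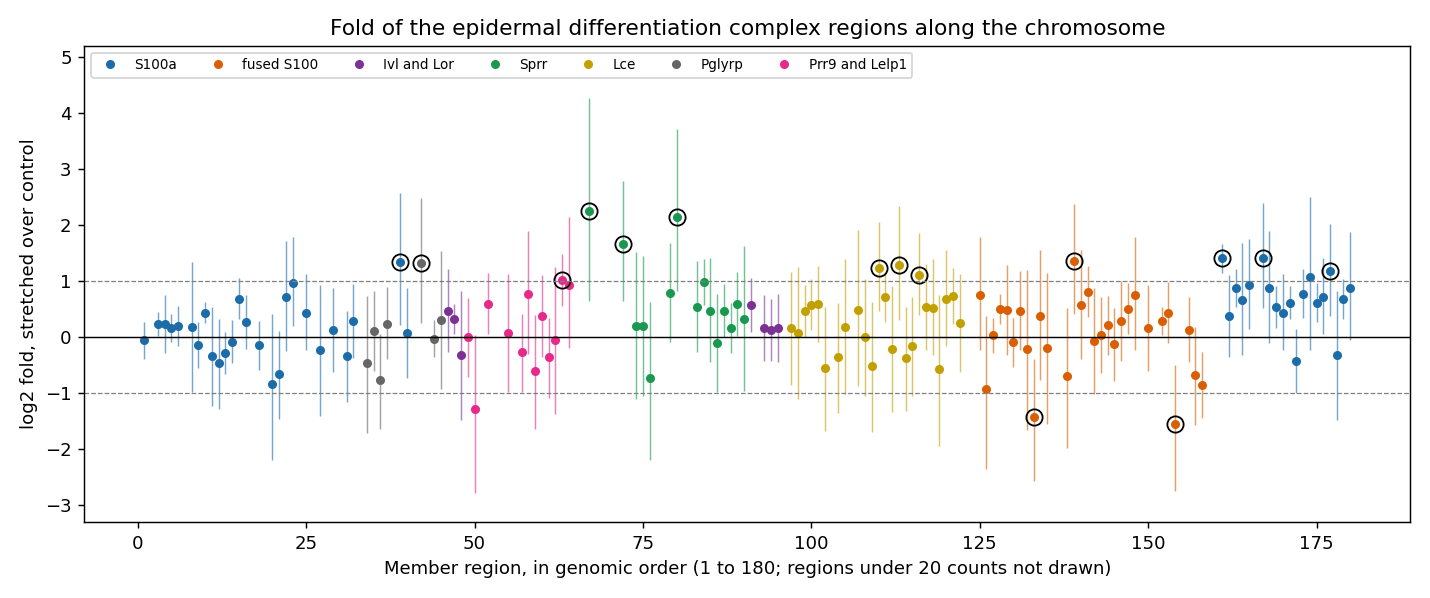
Log2 fold (stretched over control) of the 139 members with at least 20 counts, in genomic order, with exact 95% intervals as lines and colours for subfamilies. Rings mark the 13 regions called higher and the 2 called lower, and dashed lines a 2-fold difference.

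Of the 13 higher regions 12 lay over 1 kb from a gene end, as did 118 of all 139 members with at least 20 counts. The median distance of the 13 from their gene was 10530 bases. A listed peak was present in the stretched library alone at 8 of them, in both libraries at 3 and in neither at 2. The counts behind most were small, with 11 of the 13 under 100 counts over both libraries. Both lower regions carried a peak in the control alone.

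S100a11 and S100a10, at the far end of the complex, held 3 of the higher regions. S100A11 is a calcium-binding protein of keratinocytes and S100A10 the partner of annexin A2. A region 13842 bases before S100a11 (chr3:93505903-93507406) held 178 counts in the control and 447 after stretching (2.65, 2.23 to 3.18). Its highest summit pileup, in whole fragments, was 70 (control) and 181 (stretched). It was the member with the most counts among the higher regions. The region over the start of S100a11, which holds the promoter printed above, had 111 and 193 counts (1.84, 1.45 to 2.34). A region 11068 bases after the gene had 15 and 38 counts (2.68, 1.44 to 5.24). At S100a10 the region over the lower-coordinate end of the gene had 165 and 240 counts (1.54, 1.26 to 1.89). A region 21833 bases from the gene was called higher, with 20 and 43 counts (2.27, 1.31 to 4.08).

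Summed over its regions S100a11 held 408 counts in the control and 813 after stretching (2.11, 1.87 to 2.38), and S100a10 held 766 and 1085 (1.497, 1.36 to 1.64). With total scaling several genes of the complex had a fold above 1, among them Sprr1a, Sprr3 and Lce3e. Every subfamily fold except that of Sprr fell below 1. S100a11 and S100a10 gave 1.49 and 1.06 at that scaling, given here without intervals. With the trend of fold with count removed S100a11 gave 1.73 and S100a10 1.35. Of their 19 regions with at least 20 counts, 17 had a fold above 1, and the 2 below were at S100a10 (65 and 46 counts, 17 and 13 counts). One region of S100a11 under the count limit went the other way, with 13 control and 0 stretched counts (chr3:93530417-93531316). This is at least 4.10-fold lower against a floor of 3 counts, and the exact interval allows a difference as small as 2.88-fold. Without both genes, a pair picked out after their values were seen, the members' sum gave 1.20 (1.16 to 1.24), with 10 higher and 2 lower of 120 regions.

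No region was called in the S100a genes at the other end of the complex. From S100a1 to S100a9, 32 regions, 24 of them with at least 20 counts, summed to a fold of 1.13 (1.07 to 1.20). With total scaling it was below 1. S100a6, made by dividing keratinocytes, had 108 and 165 counts over its start (1.61, 1.26 to 2.08). S100a3, a gene of the hair cuticle, had its main region at 417 and 536 counts (1.36, 1.19 to 1.55), and the summed fold of 1.14 turned to 0.852 once the trend of fold with count was removed. It was 0.856 by the nearest gene end, when the main region goes to another member gene. S100a8 and S100a9 encode the subunits of calprotectin, an alarmin of wounded skin and of neutrophils. Their start regions had 35 and 45 counts (1.36, 0.854 to 2.18) and 32 and 33 counts (1.09, 0.650 to 1.83), so neither could be told from 1. A region 4670 bases before S100a8 had 22 and 41 counts (1.97, 1.15 to 3.47). The neutrophil marker list had a fold of 0.916 (0.804 to 1.04) beside these values. A region of S100a7a had 40 control and 24 stretched counts (0.634, 0.366 to 1.08).

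The Sprr genes had the highest fold of the subfamilies, 1.51 (1.34 to 1.70). Theirs was also the only subfamily fold above 1 with total scaling (1.07, given without an interval). They had 3 higher and 0 lower of 15 regions. At Sprr1a, a small proline-rich envelope precursor induced in injured epidermis, the region over the start had 79 and 148 counts. Its fold of 1.98 (1.497 to 2.64) lay just under the limit of 2. The highest summit there rested on 25 (control) and 91 (stretched) fragments, and the authors' fold enrichment over local background was 4.55 and 12.9. The region holds the start and the 2 AP-1 matches printed above. The 3 called regions were thinner, with 4 and 18 counts near Sprr2a3 (4.76, 1.57 to 19.3), 11 and 33 near Sprr2f (3.17, 1.56 to 6.95), and 6 and 25 near Sprr3 (4.403, 1.76 to 13.1). Read placement near Sprr2a3, a copied gene, was not tested. Summed over its regions Sprr4 gave 1.299 (1.08 to 1.57) with TMM and 0.919 with total scaling. The region at the start of Sprr1b held 0 control and 8 stretched counts, at least 2.82-fold higher against the floor of 3 counts, where the exact interval allows 1.80-fold.

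The Lce genes had 3 higher (12.5%, 2.66 to 32.4) and 0 lower (0 to 14.2%) of 24 regions. These intervals too hold the 6.90% and 8.66% of all assigned regions. Their summed fold was 1.35 (1.23 to 1.496), which turned to 0.958 with total scaling. The higher regions lay 7151 bases from Lce1k (21 and 47 counts), 6916 from Lce3a (13 and 30) and 10530 from Lce3e (25 and 51). Each had a peak in the stretched library alone. At Lce6a the region over the start had 72 and 102 counts (1.497, 1.096 to 2.05). At Lce1b, the other open start, 20 and 13 counts were found (0.687, 0.314 to 1.45). A region 4509 bases from Lce1l had 72 and 112 counts (1.64, 1.21 to 2.24). Lce1m summed to 117 and 162 counts (1.46, 1.15 to 1.87).

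No region of involucrin or loricrin was called higher or lower among the 7 with at least 20 counts. The sum of all 8 regions gave 1.23 (1.08 to 1.39), or 0.867 with total scaling. The main region of Lor, inside the gene and 940 bases from its start, had 217 and 258 counts (1.26, 1.04 to 1.51). The summed fold of Lor, 1.24, became 1.01 with the count trend removed. At Ivl the region over the start had 47 and 50 counts (1.12, 0.740 to 1.71). A region 30515 bases away had 64 and 90 counts (1.49, 1.07 to 2.08).

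The filaggrin-like genes, which join an S100 domain to a long repeat, were the mixed subfamily, with 1 higher and 2 lower of 29 regions and a fold of 1.14 (1.07 to 1.23), or 0.809 with total scaling. The start region of Crnn had 200 and 269 counts (1.42, 1.18 to 1.72), although the gene's fold of 1.19 became 1.02 with the count trend removed. The 2 lower regions were at the start of Tchhl1 (31 and 10 counts, 0.341, 0.149 to 0.713) and 20519 bases from Flg2, the filaggrin-2 gene (31 and 11 counts, 0.375, 0.170 to 0.766). Tchhl1 was the single gene of the complex whose interval lay below 1, at 0.704 (0.562 to 0.881) for the sum. A further Tchhl1 region had 74 control and 39 stretched counts (0.557, 0.368 to 0.832), short of the rule. The higher region lay 14644 bases from Hrnr, with 14 and 34 counts (2.57, 1.34 to 5.18). The region nearest to Hrnr, 8123 bases away and under the count limit, went the other way with 16 and 3 counts (0.198, 0.037 to 0.692). Hrnr summed to 1.32 (1.09 to 1.60), and to 0.198 when regions within 10 kb alone were used, which leaves this nearest region. Rptn gave 1.24 (1.03 to 1.49) and Tchh, the trichohyalin gene, 1.24 (1.07 to 1.44), both below 1 with total scaling. With the count trend removed Tchh gave 1.03 and Rptn 1.26. Flg itself could not be judged from its single region.

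The smaller families gave isolated calls. Pglyrp3 and Pglyrp4, which encode antibacterial peptidoglycan recognition proteins, had a fold of 1.0003 (0.856 to 1.17), with 1 higher region inside Pglyrp3 (11 and 26 counts). Its neighbour, which overlaps the end of the gene with its midpoint 127 bases outside, had 14 and 4 counts (0.302, 0.0724 to 0.961). That neighbour was under the count limit. A region of Pglyrp4 had 36 control and 20 stretched counts (0.587, 0.322 to 1.04). Prr9, a proline-rich protein gene, and Lelp1, which encodes a small envelope-like protein, gave 1.26 (1.10 to 1.45), or 0.893 with total scaling. A fold above 1 was found at 6 of their 12 regions with at least 20 counts. With regions within 10 kb alone Lelp1 gave 0.932 and Prr9 1.68. The higher region of Lelp1 lay 27402 bases from the gene, with 61 and 117 counts (2.03, 1.47 to 2.81) and a peak in both libraries. The last higher region lay 34581 bases from S100a7l2, with 10 and 24 counts and no peak.

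**Figure D5:**
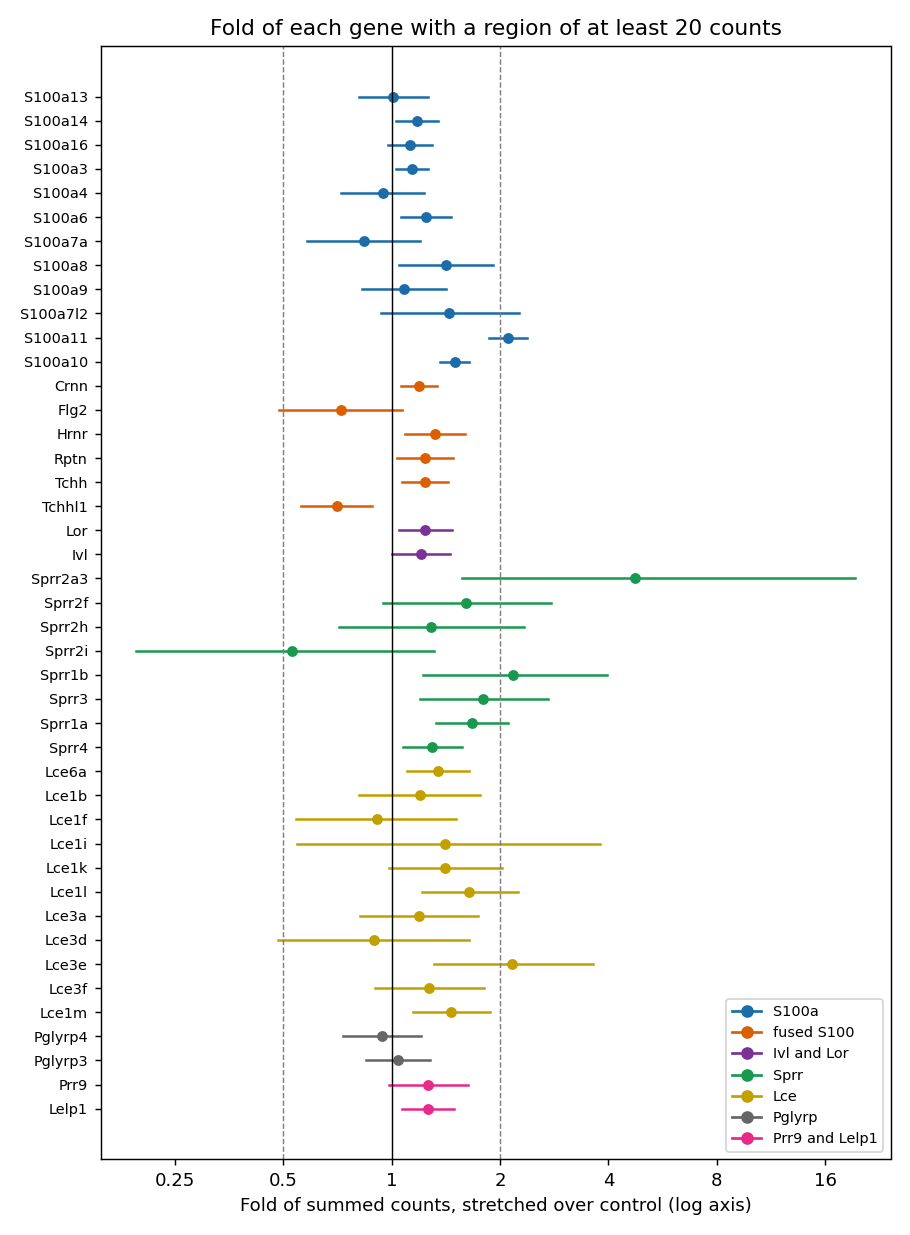
Fold of the summed counts of each of the 43 genes with a region of at least 20 counts (stretched over control, log axis), with exact 95% intervals. The interval lies above 1 for 22 genes and below 1 for Tchhl1 alone. It covers counting error only, and the same count over all genes was not made.

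Peaks, called by the authors in each library alone, gave a second view of the same reads. Both libraries had a peak at 75 of the 180 members (41.7%, 34.4 to 49.2), the control alone at 12, the stretched library alone at 24 and neither at 69. Over all regions, 52.3% had a peak in both libraries, 9.12% in the control alone and 13.9% in the stretched library alone. At the 75 shared members the authors' median fold enrichment was 5.06 (control) and 7.12 (stretched). It was greater in the stretched library at 63 of 75 (84.0%), against 76.4% of all shared regions.

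Cornified envelope genes outside the complex were also measured. A list of 20 envelope genes outside the complex, chosen with earlier results of these data known, had 4 higher and 13 lower of 114 regions and a fold of 0.8998 (0.871 to 0.92999), and the difference between the 2 sets was not tested. Its lower members included Krt10, a keratin of suprabasal cells (0.577, 0.487 to 0.683), and Cst6, a protease inhibitor (0.409, 0.313 to 0.530). All 4 of its higher regions were at Spink5, a protease inhibitor of the outer epidermis (1.83, 1.62 to 2.08). A list of 20 regulators known to act on the complex had 12 higher (6.06%) and 15 lower (7.58%) of 198 regions, near the 6.90% and 8.66% of all assigned regions. The interval of the summed fold lay above 1 for 9 of these genes and below 1 for 5. The highest was Ezh2, a histone methyltransferase (1.65, 1.37 to 1.98), and the lowest Ovol1, a zinc finger factor (0.688, 0.567 to 0.833). Satb1, a chromatin organiser, gave 1.52 (1.34 to 1.71). The AP-1 genes on the list differed in direction. Jun gave 1.47 (1.35 to 1.598), with 1 higher and 2 lower regions, and Junb gave 1.43 (1.27 to 1.603). Fosl2 lay below 1, at 0.901 (0.825 to 0.984), and the interval of Fosl1 (1.02) held 1. Trp63 stood at 1.22 (1.13 to 1.32), Klf4 at 1.08 (0.976 to 1.20) and Grhl3 at 0.734 (0.673 to 0.79996). Within the window itself, the 34 other regions with at least 20 counts had 2 higher and 2 lower. All 12 regions of the Tdpoz genes, just past S100a10, summed to a fold of 0.709 (0.588 to 0.855). Kprp, the keratinocyte proline-rich protein gene, gave 1.63 (1.13 to 2.37). Smcp gave 1.07 (0.848 to 1.35), 2310050C09Rik 0.998 (0.847 to 1.18) and Crct1 0.771 (0.558 to 1.06).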

How the data were processed

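ATAC-seq was measured in 1 control and 1 stretched library, grouped by the treatment label. The submitters' processing notes name GRCm38, HTSeq, Picard, Bowtie2 2.2.6 and SAMtools, and MACS2 2.1.0.20151222 for peaks. Per the file headers, the authors called peaks in each library alone with a q cutoff of 0.05 and no control file, from 31944854 and 23876613 fragments. The deposited pileup is a signal in whole fragments, the deposited fold enrichment a ratio to local background, and -log10 p-values and q-values were deposited for each summit. The deposited counts are raw counts over merged regions. The counting program, the merge rule and the treatment of duplicates in the counts: not given in the sources used here.

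TMM factors came from edgeR 4.0.16 under R 4.3.3, with every region used, and DESeq2 1.42.0 size factors were an alternative. No test was possible with 1 library in each group. Folds, intervals and calls were computed in Python 3.11.15 and tested on simulated data. Summed folds used every region of a set, also those under 20 counts. Midpoints were assigned to the nearest of 21896 RefSeq protein-coding genes (0 distance inside a gene). Distances in bases of a region from a gene are from its midpoint, and those from a start site are from its nearest edge. A count of 0 was set to a floor of 3. Members, gene lists and motifs were chosen with earlier results of these data known. Named genes were the 3 with the most counts per subfamily, every gene with a called region, and Flg, Lor, Ivl, Rptn, Tchh, S100a8 and S100a9. Named regions with at least 50 counts were the 8 largest folds each way and the 8 with the most counts per kb. Other genes, among them S100a6, S100a14, S100a16, Sprr1b, Lce1b, Kprp and the list members, were named after their values were seen.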

Additional observations from a re-analysis of the deposited data

How the results depend on the processing

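Scaling set the level of every fold. Scaling by total counts gave 3 higher and 10 lower members and a summed fold of 0.903. Scaling by counts outside the 10 large regions gave a summed fold of 1.16, and removal of the count trend also 1.16. Scaling by fragments after filtering, added after seeing the data, gave 35 higher members and a summed fold of 1.62. These were 25.2% of the members, against 15.9% of all assigned regions at the same scaling, which raises every fold. The summit pileup per fragment, over the 75 members with a peak in both libraries alone and scaled by fragments, gave 1.88. With at least 10 counts 5 members were lower, and with at least 50 counts 6 were higher and 0 lower. A fold limit of 1.5 gave 28 higher, and a limit of 3 gave 3 higher and 0 lower. With genes within 10 kb 6 members were higher, 1 lower and 46 had a peak in both libraries. Shares over all assigned regions are not given for these count, fold and distance limits. Without S100a10 and S100a11, added after seeing the data, the summed fold was 1.20. DESeq2 size factors and the nearest gene end moved none of these counts or the summed fold beyond the limits used. Leaving out a replicate was not possible with 1 library per group. No paired analysis was possible because each group has 1 library and the labels give no replicate number. Depth limits single regions: 41 of 180 members held under 20 counts and were not called.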
